A study of Nomascus leucogenys with 9 samples.

Results

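The genes described here are markers of cell types other than B cells, read out in lymphoblastoid cell lines. They are 39 genes in 3 classes, listed by name: 20 that mark T cells and natural killer (NK) cells, 11 that mark myeloid cells (monocytes, macrophages and granulocytes), and 8 that mark stromal cells such as fibroblasts and smooth muscle. Of the 39, 26 had a row among the 15356 rows of the expression table and 13 had none. The RNA came from lymphoblastoid cell lines of 9 northern white-cheeked gibbons (Nomascus leucogenys), 1 line from each animal, and was measured by RNA-seq. All 9 are lymphocytes transformed with Epstein-Barr virus (EBV), no treatment or contrast between animals is labelled, and the study's title concerns the retrotransposon LAVA. The lines carry the animals' names and are called by them here: Vok, Ricky, Phyllis, Nancy, Melouprey, Khao, China, Bobby and Asia. Each line is a single library, so a difference between lines has no replicate check, and animal, culture and transformation event cannot be told apart.

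T cells recognise antigen through a receptor whose signal passes through the CD3 chains and the zeta chain. NK cells and cytotoxic T cells kill with perforin, granzymes and granulysin stored in granules. Myeloid cells carry the receptors for the colony-stimulating factors and the scavenger and complement receptors used in phagocytosis, and stromal cells build the extracellular matrix from collagens and fibronectin. EBV infects mainly B cells, and lymphoblastoid lines grow out of infected blood lymphocytes in culture. Several of these markers are not exclusive to the cells they mark: activated B cells can make granzyme B, some B cell subsets carry CD5 or the integrin CD11c, and B cell precursors carry the interleukin-7 receptor.

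Values are the deposited ones, in log2 units. A level in ppm is a gene's part of the summed linear values of its line, per 1000000. No correction for transcript length was made here, and the scaling of the deposited values is not given in the sources used here. Therefore no gene is ranked against another by level. A row is called kept where its mean level reached 1 ppm (about 3.80 log2 units), which 12590 rows did. The range of a gene is its highest line minus its lowest line. The labels name EBV-transformed lymphocytes and not B cells. Therefore 5 B cell genes were looked at first, and all of them were above 1 ppm in every line. The B cell receptor chain CD79A (ENSG00000105369) lay between 11.03 and 11.55 log2 units over the 9 lines, its partner CD79B (ENSG00000007312) between 9.46 and 10.48, and the B cell transcription factor PAX5 (ENSG00000196092) between 10.62 and 10.98. MS4A1 (ENSG00000156738), which encodes CD20, ran from 9.36 to 12.62 and the inhibitory receptor CD22 (ENSG00000012124) from 7.44 to 10.33. A low row in this table is given as a low row, and not as proof that the gene was silent.

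Most T and NK genes had a row in the table, while 7 of 11 myeloid genes and 4 of 8 stromal genes had none. Of the 26 genes with a row 19 were kept, beside 82% of all rows. In the T and NK class 18 of 20 genes had a row and 12 were kept. CD4, the helper T cell coreceptor, and TBX21, the T-bet transcription factor, had no row. In the myeloid class 4 of 11 had a row and 3 were kept. The 7 without a row were CD14, LYZ, S100A8, S100A9, MPO, CD33 and CSF3R, which include the monocyte lipopolysaccharide coreceptor, lysozyme, both calprotectin subunits and myeloperoxidase. In the stromal class 4 of 8 had a row and all 4 were kept. COL1A2, COL3A1, DCN and ACTA2, which encode a type I collagen chain, type III collagen, decorin and smooth muscle actin, had no row. How the authors chose which genes to list is not given in the sources used here, so a gene without a row carries no value. Each of the 19 kept genes was at or above 1 ppm in every line, and none of them passed through a single high line.

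**Figure D1:**
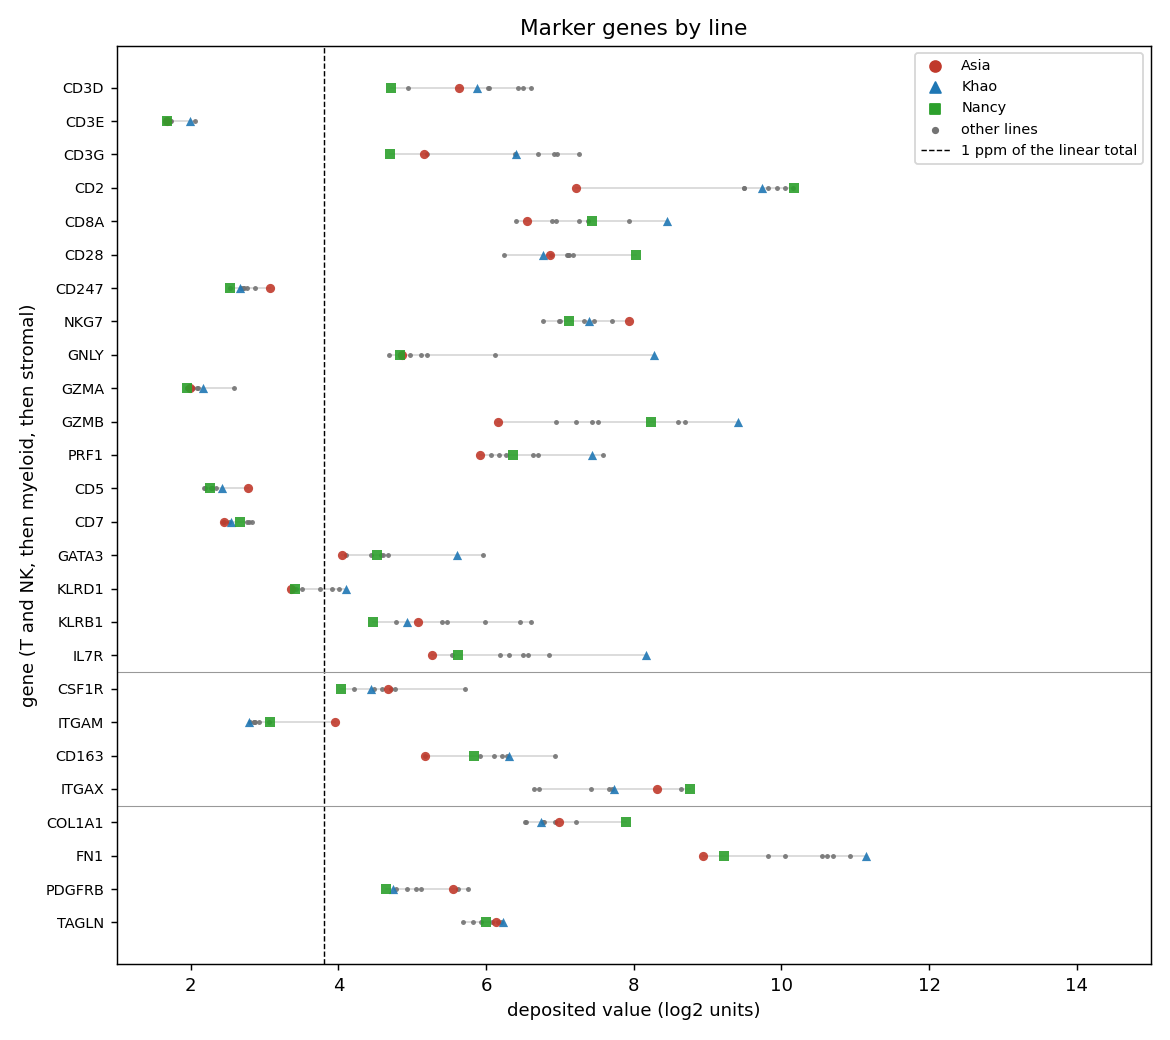
Deposited values (log2 units, horizontal axis) of the 26 marker genes with a row, 1 row of points per gene and 1 point per line; Asia, Khao and Nancy are coloured and the dashed line marks 1 ppm. CD3E, CD247, GZMA, CD5 and CD7 lie left of the dashed line in all 9 lines, and GNLY, IL7R and GZMB have their highest point in Khao.

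The kept marker genes differed between lines by wide ranges. The lines spanned 4-fold or more in 9 of the 19, against 6.18% of all kept rows. The 9 were CD3G, CD2, CD8A, GNLY, GZMB, KLRB1 and IL7R of the T and NK class, ITGAX of the myeloid class and FN1 of the stromal class. They spanned 2-fold or more in 18 of the 19, against 26.4% of all kept rows, and TAGLN was the exception. A single outlying line, set apart from the other 8 by Dixon's gap criterion, was found in CD2, GNLY and CSF1R. That is 3 of the 19, against 10.1% of all kept rows, so with all lines the share was not far from the background. This count was not stable. Without Khao it was 5, beside 9.47% of all kept rows, and with no filter it was 6 of 26, beside 12.2% of all rows. The median range of the 19 was 1.91 log2 units, or 3.75-fold, and that of all kept rows was 0.68 log2 units, or 1.60-fold. A wide range was not particular to the marker genes. Of the B cell genes, MS4A1 spanned 9.58-fold and CD22 7.43-fold, while CD79B spanned 2.04-fold, CD79A 1.44-fold and PAX5 1.28-fold. Among kept rows, those of low level varied more, so the genes are also set beside rows of their own level. Between 1 and 10 ppm, 4 of 13 marker genes spanned at least 4-fold, against 8.77% of rows. Between 10 and 100 ppm it was 5 of 6, against 5.94% of rows. No marker gene had a mean of 100 ppm or more. The count of 9 rests in part on Khao: without it 5 genes spanned at least 4-fold, beside 5.61% of all kept rows, and CD8A, GNLY, IL7R and FN1 were then under that bound. Asia had the most kept rows at least 2-fold from the row median in both directions. Without it 7 genes spanned at least 4-fold, beside 4.12% of all kept rows. The genes nearest the 4-fold bound were CD8A (4.12-fold) and ITGAX (4.30-fold) inside it, and GATA3 (3.75-fold) and CD3D (3.70-fold) outside it.

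Of the genes of the T cell receptor complex, CD3D and CD3G had clear rows that varied between lines, while CD3E and CD247 had low rows in all 9. CD3D, CD3E and CD3G encode the delta, epsilon and gamma chains of CD3, and CD247 encodes the zeta chain. CD3G (ENSG00000160654) was 7.26 log2 units in Melouprey, 6.96 in Phyllis, 6.92 in Ricky, 6.70 in Bobby, 6.40 in Khao and 6.39 in Vok. It was 5.20 in China, 5.15 in Asia and 4.70 in Nancy. A gap of 1.20 log2 units separated these 3 lines from the other 6, and the full range was 5.91-fold (mean 6.19 ± 0.93, SD, n = 9). CD3D (ENSG00000167286) ran from 4.72 in Nancy and 4.94 in China through 5.64 in Asia and a median of 6.03 to 6.60 in Ricky, a range of 3.70-fold (mean 5.87 ± 0.67, SD, n = 9). Asia, China and Nancy were thus the lowest 3 lines for both genes. CD3E (ENSG00000198851) lay between 1.66 and 2.06 log2 units (mean 1.77 ± 0.15, SD, n = 9), under 1 ppm in every line. CD247 (ENSG00000198821) lay between 2.53 and 3.08 (mean 2.73 ± 0.17, SD, n = 9). In the RefSeq annotation of the assembly Asia_NLE_v1 CD3D is the immediate neighbour of both CD3E and CD3G among protein-coding genes, so the low row lies beside the clear ones. Why CD3E and CD247 had low rows while CD3D and CD3G did not was not tested. The gene annotation behind the expression table is not given in the sources used here. For differences between lines in bulk RNA, fewer cells of a type and less RNA per cell cannot be told apart.

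**Figure D2:**
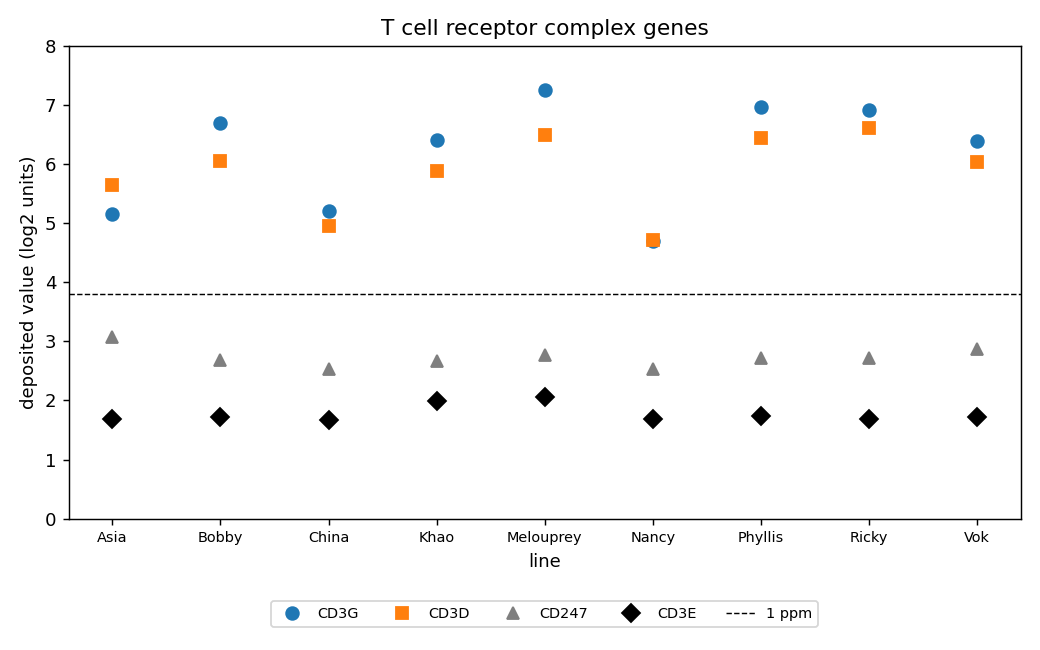
Deposited values (log2 units, vertical axis) of CD3G, CD3D, CD247 and CD3E in each of the 9 lines; the dashed line marks 1 ppm. CD3G and CD3D lie above the dashed line in every line and are lowest in Asia, China and Nancy, while CD247 and CD3E lie below it in every line.

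CD2 (ENSG00000116824), an adhesion receptor of T and NK cells that binds CD58, was high in 8 lines and low in Asia. It was 10.18 log2 units in Nancy, 10.15 in China, 10.05 in Phyllis, 9.94 in Ricky, 9.82 in Melouprey, 9.74 in Khao, and 9.50 in both Bobby and Vok. In Asia it was 7.22, or 6.06-fold below the median. The 8 other lines lay within 1.60-fold of each other, so the 7.77-fold range came from that line alone. As a part of the linear total CD2 was 10.7 ppm in Asia and 51.6 to 82.8 ppm elsewhere (mean 61.2 ± 22.1, SD, n = 9).

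Of the other T cell surface receptors, CD8A and IL7R were highest in Khao and then Melouprey, and CD28 was highest in Nancy. CD8A (ENSG00000153563), a chain of the cytotoxic T cell coreceptor, was 8.45 log2 units in Khao and 7.94 in Melouprey. It was 7.44 in Nancy, 7.38 in China, 7.26 in Vok, 6.95 in Ricky, 6.90 in Bobby, 6.56 in Asia and 6.41 in Phyllis, a range of 4.12-fold. Without Khao that range was 2.89-fold. CD28 (ENSG00000178562), the costimulatory receptor, was 8.03 in Nancy and at most 7.18 in any other line, with a median of 7.09 and its lowest value of 6.24 in China. IL7R (ENSG00000168685), the alpha chain of the interleukin-7 receptor, was 8.17 in Khao, followed by 6.86 in Melouprey, 6.57 in Bobby, 6.49 in China, 6.31 in Phyllis, 6.19 in Vok, 5.62 in Nancy, 5.54 in Ricky and 5.27 in Asia. Khao stood 2.47-fold above the next line, and the range of 2.89 log2 units (7.43-fold) became 1.59 without it. CD5 (ENSG00000110448, 2.18 to 2.77) and CD7 (ENSG00000173762, 2.44 to 2.83), both pan-T cell surface proteins, lay under 1 ppm in every line.

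Among the genes of the cytotoxic granule, granulysin and granzyme B varied most between lines, and Khao was the highest for both. GNLY (ENSG00000115523), which encodes granulysin, a pore-forming antimicrobial protein, was 8.27 log2 units in Khao, 6.12 in Melouprey, 5.20 in China, 5.11 in Ricky and 4.97 in Phyllis. It was 4.87 in both Asia and Bobby, 4.83 in Nancy and 4.69 in Vok. Khao was 9.83-fold above the median and 4.43-fold above Melouprey, and without Khao the range was 2.70-fold in place of 12.0-fold. GZMB (ENSG00000100453), which encodes the serine protease granzyme B, was graded. It ran from 6.16 in Asia through 6.95 in Phyllis, 7.21 in Vok, 7.43 in China, 7.52 in Bobby, 8.24 in Nancy, 8.60 in Melouprey and 8.70 in Ricky to 9.41 in Khao. The range was 9.56-fold, and 5.82-fold without Khao. GZMA (ENSG00000145649), which encodes the sister protease granzyme A, lay between 1.95 and 2.59 log2 units, under 1 ppm in every line.

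PRF1 (ENSG00000180644), which encodes perforin, was highest in China (7.59 log2 units) and Khao (7.43) and lowest in Asia (5.92), with a median of 6.37. NKG7 (ENSG00000105374), a granule membrane protein of NK and T cells, varied less. It ran from 6.77 in Bobby to 7.94 in Asia, with a median of 7.33 and a range of 2.24-fold, and its highest line was the line in which GZMB, PRF1 and CD2 were lowest. Granule genes therefore did not share a single order of lines.

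The NK receptor gene KLRB1 and the lineage factor GATA3 were both highest in Vok, while the NK receptor gene KLRD1, whose mean lay under 1 ppm, was highest in Khao. KLRB1 (ENSG00000111796), a lectin-like receptor also called CD161, was 6.61 log2 units in Vok, 6.46 in China, 5.99 in Ricky, 5.47 in Phyllis, 5.40 in Melouprey, 5.08 in Asia, 4.92 in Khao, 4.78 in Bobby and 4.47 in Nancy. Its range was 4.39-fold, and Khao was among its lower lines. GATA3 (ENSG00000107485), the transcription factor of helper T cells of type 2, was 5.96 in Vok and 5.60 in Khao. It lay between 4.06 (Asia) and 4.67 (Bobby) in the other 7, with a median over all lines of 4.58 and a gap of 0.94 log2 units with no line inside it. KLRD1 (ENSG00000134539), which encodes CD94, lay between 3.36 (Asia) and 4.11 (Khao), and reached 1 ppm in 3 lines.

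**Figure D3:**
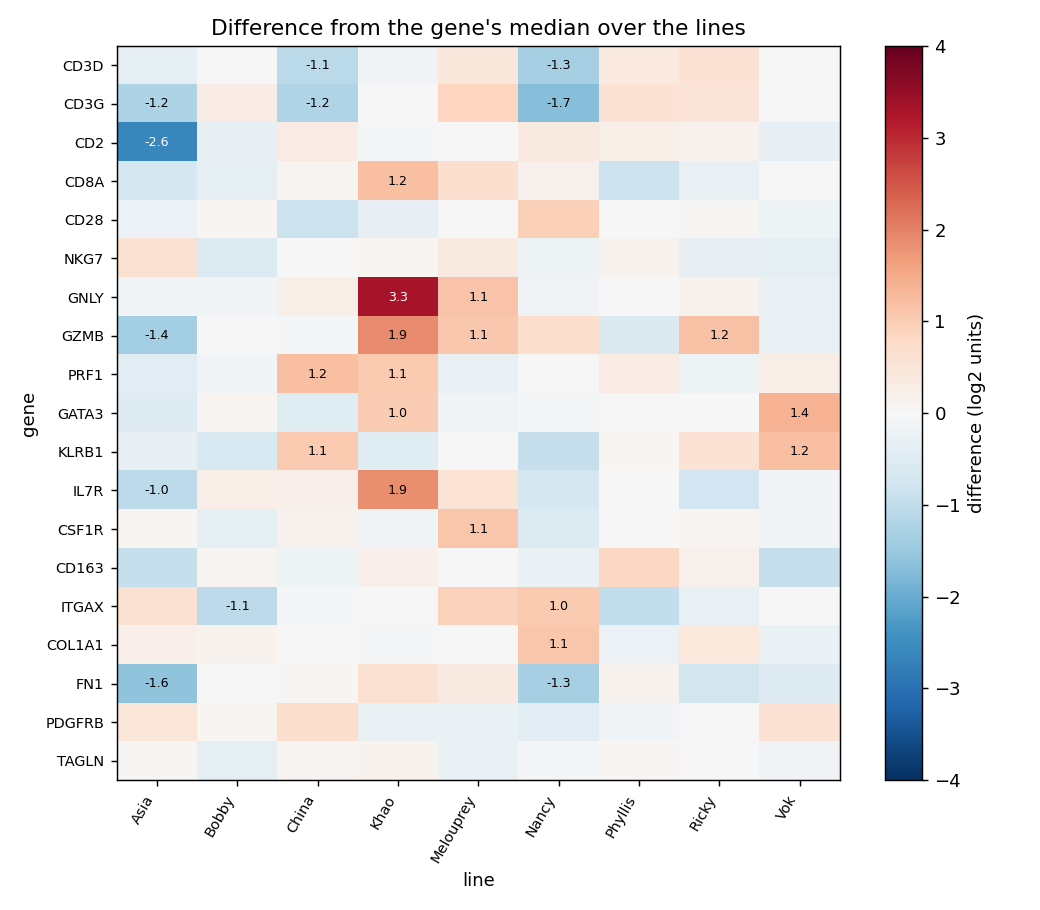
Difference of each line (horizontal axis) from the gene's median over the 9 lines, in log2 units, for the 19 kept marker genes; red is above and blue below the median, and differences of at least 1 log2 unit are printed. Khao has 6 such values above the median, all in T and NK genes, and Asia has 5 below it.

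Khao carried the most high marker values and Asia the most low ones. In Khao, 6 of the 19 kept genes (31.6%) lay at least 2-fold above their median, against 1.27% of all kept rows in that line. They were CD8A, GNLY, GZMB, PRF1, GATA3 and IL7R, by 2.03-fold (GATA3) to 9.83-fold (GNLY). CD3D and CD3G were not among them, at 5.88 and 6.40 log2 units beside medians of 6.03 and 6.40, and CD3E (1.99) and CD247 (2.67) stayed under 1 ppm in that line. The count at least 2-fold below the median in Khao was 0, at the background of 0.342% of all kept rows. In Melouprey, 3 genes were at least 2-fold above their median, against 0.58% of all kept rows: GNLY (2.22-fold), GZMB (2.12-fold) and CSF1R (2.18-fold).

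In Asia, 5 of the 19 genes (26.3%) lay at least 2-fold below their median, against 2.63% of all kept rows. They were CD2 (6.06-fold), FN1 (3.07-fold), GZMB (2.57-fold), CD3G (2.37-fold) and IL7R (2.05-fold). The count of marker genes at least 2-fold above their median there was 0, which is near the background of 3.4% of all kept rows. Asia was the lowest line for 7 of the 19 genes, against 14.0% of all kept rows. In Nancy, CD3D, CD3G and FN1 were at least 2-fold low, against 0.961% of all kept rows, and ITGAX and COL1A1 at least 2-fold high, against 2.47%. Over all lines 16 of 171 gene-by-line values (9.36%) lay at least 2-fold above the median, against 1.33% of all kept values, and 11 (6.43%) lay at least 2-fold below it, against 0.838%. Without Khao the 16 became 10, beside 1.27% of all kept values.

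Some of these genes shared their highest or lowest lines, patterns that were noticed after the values were seen. Khao and Melouprey were the highest pair for 7 of the 26 genes with a row, against 2.46% of all rows. These were CD8A, GNLY, IL7R and FN1 of the kept genes, and CD3E, GZMA and KLRD1, whose means lay under 1 ppm. Asia, China and Nancy were the lowest trio for 4 of the 26, against 3.63% of all rows: CD3D, CD3G, CD3E and KLRD1. Of the 19 kept genes 2 had that trio, CD3D and CD3G. Because the lines were picked from these same values, the shares of all rows do not test either pattern. The full range was 1.32-fold for CD3E, 1.56-fold for GZMA and 1.68-fold for KLRD1, so the order of lines in those rows rests on small differences.

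**Figure D4:**
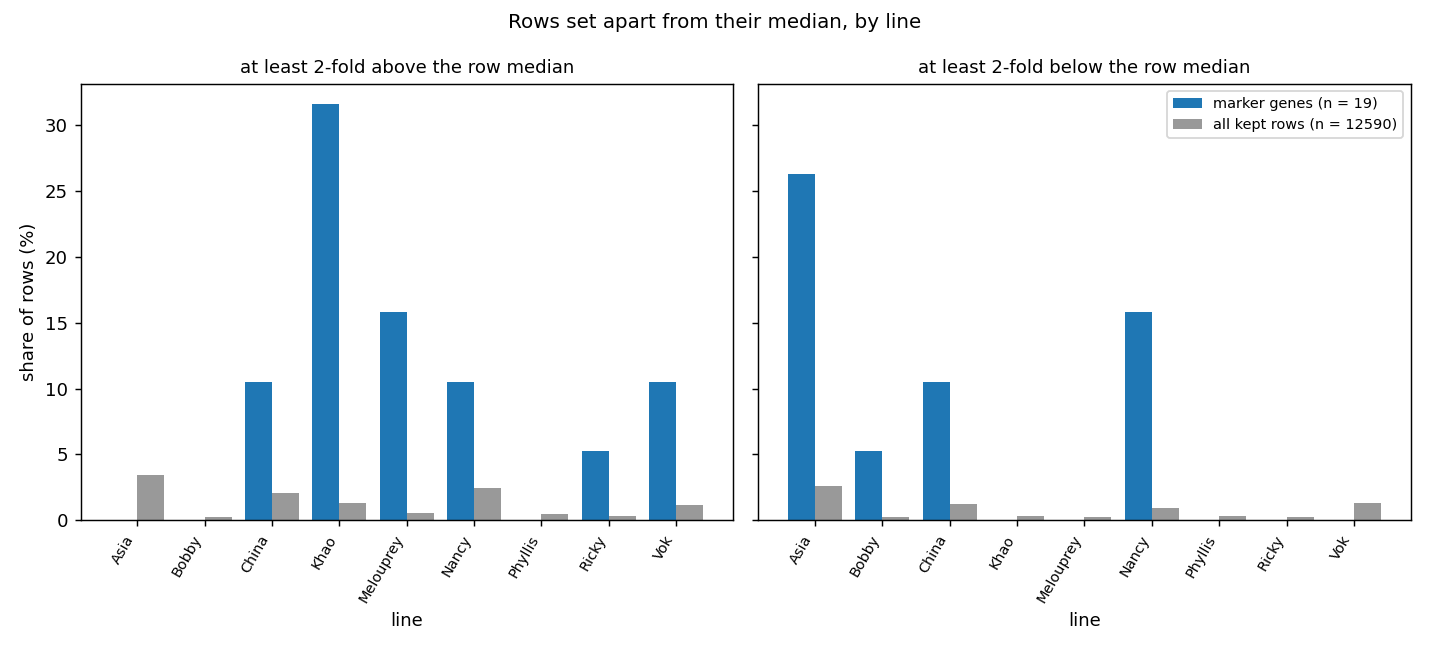
Share (%) of the 19 kept marker genes (blue) and of all 12590 kept rows (grey) that lay at least 2-fold above (left) or below (right) the row median, for each line. The blue bar is tallest in Khao on the left, at 31.6%, and in Asia on the right, at 26.3%.

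The myeloid genes with a row did not share a high line. ITGAX (ENSG00000140678) encodes CD11c, the alpha chain of an integrin of dendritic cells and macrophages. It was 8.76 log2 units in Nancy, 8.64 in Melouprey, 8.31 in Asia, 7.73 in Khao, 7.71 in Vok, 7.66 in China, 7.42 in Ricky, 6.72 in Phyllis and 6.65 in Bobby. Its range was 4.30-fold (mean 7.73 ± 0.75, SD, n = 9), with Bobby and Phyllis apart at the low end. ITGAM (ENSG00000169896), its neighbour in the annotation and the alpha chain of complement receptor 3, had a low row of 2.79 to 3.07 log2 units in 8 lines and of 3.95 in Asia, the only line in which it reached 1 ppm.

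CSF1R (ENSG00000182578), the macrophage colony-stimulating factor receptor, was 5.71 log2 units in Melouprey and between 4.03 and 4.77 in the other 8 (median of all lines 4.59), so Melouprey stood 1.93-fold above the next. CD163 (ENSG00000177575), a haemoglobin scavenger receptor of macrophages, ran from 5.17 in Asia and Vok to 6.94 in Phyllis, with a median of 6.11 and a range of 3.41-fold. PDGFRB (ENSG00000113721), a stromal growth factor receptor whose gene lies next to CSF1R in the annotation, was lowest in Nancy (4.64) and highest in China (5.76), with a median of 5.05. In Melouprey, where CSF1R was highest, PDGFRB was 4.77.

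Of the stromal genes, FN1 had the widest range over the lines. FN1 (ENSG00000115414) encodes fibronectin, a matrix glycoprotein of fibroblasts that other cultured cells also make. It was 11.15 log2 units in Khao, 10.93 in Melouprey, 10.70 in Phyllis, 10.62 in China, 10.55 in Bobby, 10.05 in Vok, 9.82 in Ricky, 9.23 in Nancy and 8.94 in Asia. The range was 4.64-fold (mean 10.22 ± 0.77, SD, n = 9), and Asia and Nancy lay 0.59 log2 units or more below all others. COL1A1 (ENSG00000108821), the alpha 1 chain of type I collagen, was 7.89 in Nancy and between 6.53 and 7.22 elsewhere (median of all lines 6.79), so Nancy was low for FN1 and high for this collagen. TAGLN (ENSG00000149591), the smooth muscle protein transgelin, was nearly level at 5.69 to 6.22 log2 units with a median of 6.08, a range of 1.45-fold that 66.9% of all kept rows reached or passed.

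The summed levels of the 3 classes did not all have the same high line. The 18 T and NK genes with a row summed to 70.2 ppm in Asia, a median of 160.2 ppm and 228.8 ppm in Khao. Without CD2 the sum ran from 59.5 ppm in Asia to 167.7 ppm in Khao, with a median of 79.4 ppm. The 4 myeloid genes summed to 14.3 ppm in Bobby, a median of 21.3 ppm and 38.0 ppm in Melouprey. The 4 stromal genes summed to 52.7 ppm in Asia, a median of 122.1 ppm and 177.8 ppm in Khao, of which FN1 was 35.2 ppm and 162.9 ppm. Without FN1 the stromal sum lay between 14.0 ppm (Melouprey) and 23.4 ppm (Nancy). The B cell genes CD79A, CD79B, MS4A1, CD22 and PAX5 together summed to 491.7 ppm in Phyllis, a median of 562.1 ppm and 847.8 ppm in Vok, and were 559.5 ppm in Asia and 632.5 ppm in Khao. Of these B cell genes, CD22 was also low in Asia, at 7.44 log2 units beside a median of 9.84, or 5.28-fold below it. The part that other cell types in a culture had in any of these differences was not tested.

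**Figure D5:**
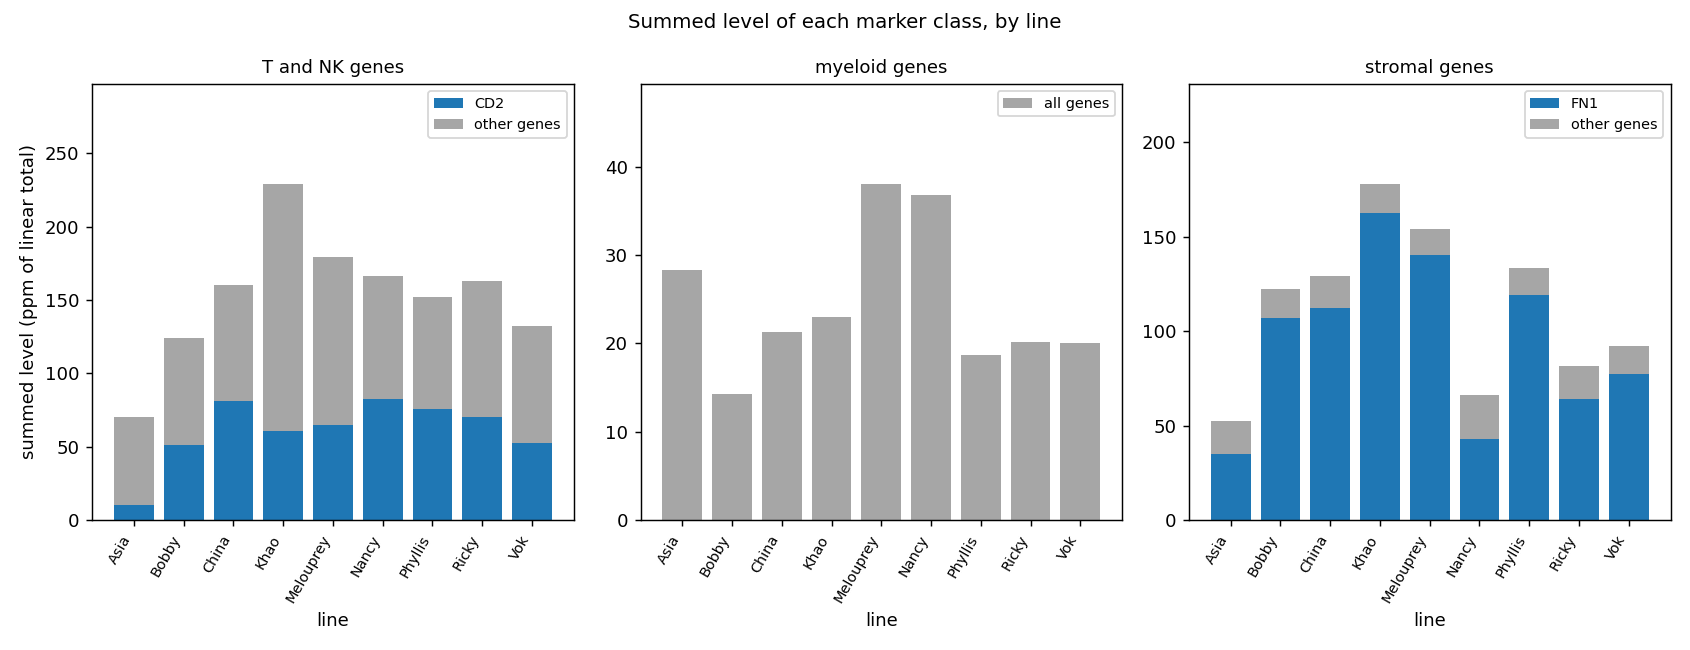
Summed level (ppm of the linear total, vertical axis) of the T and NK, myeloid and stromal genes with a row in each of the 9 lines, with CD2 and FN1 drawn in blue. The T and NK sum and the stromal sum are lowest in Asia (70.2 and 52.7 ppm) and highest in Khao (228.8 and 177.8 ppm), and the myeloid sum is highest in Melouprey (38.0 ppm).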

How the data were processed

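RNA-seq libraries of 9 lines in 1 group were used. Per the submitters' processing notes, DESeq2, edgeR, STAR and Trimmomatic were used, without versions or roles. What genome build, gene annotation and scaling lay behind the table is not given in the sources used here. The log2 values are those deposited by the authors, from 0.71 to 18.66 with no 0. The log base was inferred, since the values raised to base 2 summed to between 13728358 and 14059842 per line. These near-equal totals are not sequencing depths, so depth is unknown and no counting interval is given. If the scale compresses low rows, as a regularized log does, their ranges and folds are understated. In the file's header a space, not a tab, stands between the names of Ricky and Vok. The header was split there, columns were matched to lines by those names, and 0 per-sample columns were left unused.

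The identifiers have the human Ensembl format and the table holds no symbols. Symbols and identifiers of the 39 genes were listed together. Those of the 5 B cell genes were entered from general knowledge, because the RefSeq table (Asia_NLE_v1) holds 0 Ensembl identifiers. It served for gene order, with 38 of 39 symbols matched. Other markers of these cell types could not be matched and were not used. 1 planned check gene is not reported here.

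Python 3.11.15, numpy 2.4.6 and pandas 2.3.3 gave means, SDs, ranges and differences from the row median. Rows under a mean of 1 ppm were left out of the counts over kept genes. They were included in the counts of shared highest or lowest lines, of flagged sets and without a filter. An outlying line was called by Dixon's gap criterion for 9 values (0.493). The steps were tested on simulated data. No p-value is given, because 1 group has no contrast. All 39 genes are accounted for, with every line's value where the range reached 4-fold. Members and lists were chosen with earlier results of these data known.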

Additional observations from a re-analysis of the deposited data

Results flagged for a closer look

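Of 34 sets of 9 values checked for a single line far from the rest (the 26 marker genes with a row, the 5 B cell genes and the 3 class sums), 6 had such a line. By the criterion's nominal rate, about 1 set in 20 would do so by chance if the sets were independent, and these share their lines. The observed background was higher: with no filter, the share of all rows with such a line was 12.2%. The nominal rate is therefore too low a yardstick for the count of 6. CD2 was 7.22 log2 units in Asia, where the next lowest line had 9.50. GNLY was 8.27 in Khao, where the next highest had 6.12. CSF1R was 5.71 in Melouprey, where the next highest had 4.77. The other 3 genes had means under 1 ppm: ITGAM was 3.95 in Asia, against at most 3.07 elsewhere, CD5 was 2.77 in Asia, against at most 2.42, and GZMA was 2.59 in Melouprey, against at most 2.17. Among the 19 kept marker genes the count was 3, beside 10.1% of all kept rows. None of the 3 class sums and none of the 5 B cell genes had such a line. The stromal sum without FN1, which was not among the 34 sets, did: Nancy had 23.4 ppm, beside a median of 14.9 ppm.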

How the results depend on the processing

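The counts over marker genes did not move by more than 1.5 times when columns were centred on their median, quantile normalized or given a pseudocount of 1. With no filter, 6 of 26 genes had an outlying line in place of 3 of 19, beside 12.2% of all rows. With a filter of 5 ppm 11 genes were left, beside 64.5% of all rows. All 11 spanned at least 2-fold (24.9% of all rows past that filter) and 1 had an outlying line (9.36%). In these 11 genes 9 values lay at least 2-fold above a median (1.05% of all such values). These counts were lower because fewer genes were counted. Leaving out each line in turn gave 19 kept genes each time, beside 81.6% to 82.1% of all rows. Of the 19, 5 to 9 spanned at least 4-fold, beside 4.12% to 6.08% of all kept rows. At least 2-fold was spanned by 16 to 18, beside 22.1% to 26.1%. An outlying line was found in 2 to 5, beside 8.37% to 11.1%. Values at least 2-fold above a median numbered 10 to 15, beside 1.04% to 1.38% of all kept values. The end of these ranges of counts farthest from the full count came without Khao for the 4-fold count (5), the outlying lines (5) and the high values (10). Of the 9 wide ranges, those of CD2 without Asia (0.68 log2 units), GNLY without Khao (1.43) and IL7R without Khao (1.59) moved by more than the SD of the gene. No paired analysis was possible because the labels define 1 group only. Under these rescalings the largest shift of a column's median row was 0.014 log2 units. Depth is unknown, so counting noise in low rows could not be separated from differences between lines.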
